A study of Mus musculus with 12 samples.

Results

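Macrophages sorted from the ducts of lactating mammary glands were compared with those from glands at day 16.5 of pregnancy, across all genes. The comparison used 6 of the 12 libraries of the series, 3 labelled Lactating and 3 labelled Pregnant, and these were chosen by their stage label alone. The other 6 libraries were from virgin mice and from mice 1 month after weaning. They entered the low-count filter, the scaling and the estimate of the spread, and their levels are given as a description. All mice were C57BL/6 females, and the labels name no transgene, allele or treatment in either stage. The sources used here do not give the day of lactation, the sorting gate or whether a library pooled mice. Each library was made from 2000 sorted cells with the SMART-Seq v4 kit, and all were read in 1 sequencing run. The Lactating libraries held 7304269, 6926273 and 10445732 gene counts and the Pregnant libraries 8510895, 8425970 and 21204704, in replicate order. The labels call the replicates biological, so the p-values below measure the spread between such samples. In bulk libraries of this kind, fewer cells of a type and less RNA per cell cannot be told apart.

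Ductal macrophages lie against and between the epithelial cells of the mammary duct, where they are known for surveying the epithelium and taking up dying cells. Milk secretion starts around birth, so the pair of stages spans the step from a gland that has built its alveoli to one that secretes. NF-kB is a family of transcription factors held in the cytoplasm by inhibitor proteins of the IkB family. When these are degraded, the factors enter the nucleus and switch on chemokines, cytokines and also their own inhibitors, which limits the response.

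Lactating replicate 3 differed in make-up from the other 5 libraries, and it is therefore treated separately. Milk protein and secretory cell genes took 7.45% of its counts, against 0.183% and 0.175% in Lactating replicates 1 and 2 and 1.45%, 0.17% and 0.257% in the Pregnant libraries. Endothelial genes took 0.0672% of its counts and at most 0.00284% elsewhere in the comparison, and Cdh5, the cadherin that defines endothelium, had 45.2 counts per 1000000 scaled counts (CPM) there and at most 0.548 in the other 5. The nuclear RNA Malat1 took 4.09% of its counts against 0.536% to 1.32%, and it had the fewest genes with any count, 10178. Genes of resident macrophage identity took 5.57% of its counts, 14.9% and 13.9% of those of the other Lactating libraries and 10.8% to 12.5% of those of the Pregnant libraries, a sum to which Cd74 contributed most. The first principal component of the 6 libraries, with 50.5% of the variance, separated this library from the other 5, and the second, with 23.8%, separated the Pregnant libraries from Lactating replicates 1 and 2. On the second component Lactating replicate 3, at 54.8, lay among the Pregnant libraries (49.75 to 59.3). Its correlation over all tested genes (log2 CPM) was nonetheless higher with its own stage. It was 0.7104 and 0.7147 with Lactating replicates 1 and 2, and 0.6768, 0.6642 and 0.6841 with Pregnant replicates 1 to 3. Results that change with Lactating replicate 3 are given with and without it. The part that milk, endothelial or nuclear RNA plays in these results was not tested.

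**Figure D1:**
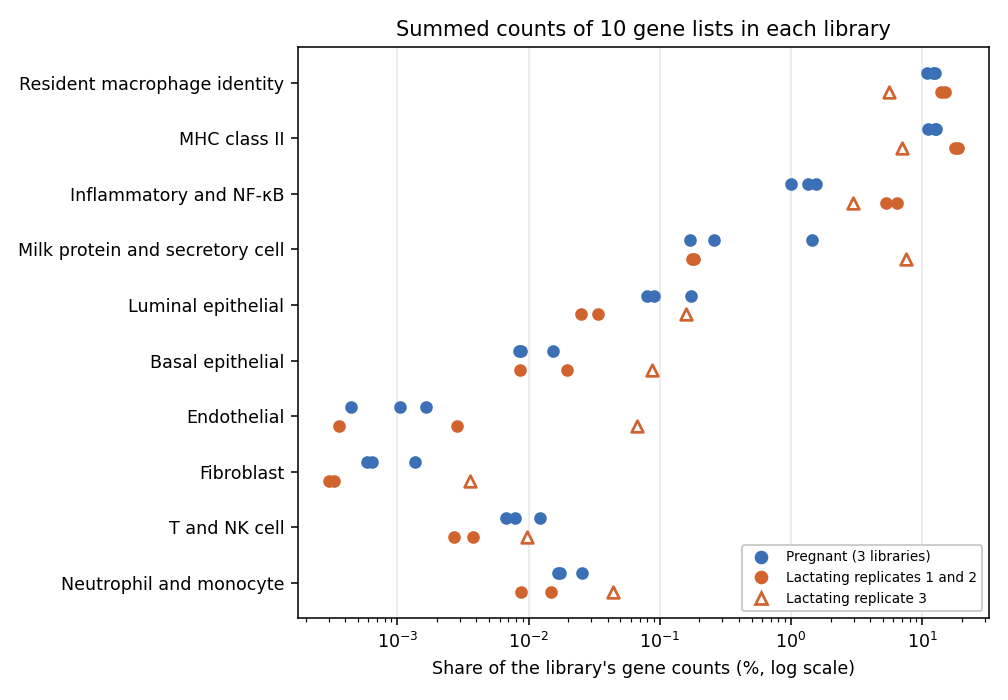
Share of each library's gene counts (x axis, percent, log scale) taken by 10 gene lists (y axis). Circles are single libraries, blue for Pregnant and orange for Lactating replicates 1 and 2, and the open triangle is Lactating replicate 3, which lies at 7.45% for milk genes and at 5.57% for resident macrophage identity.

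Macrophage markers were detected in all 6 libraries, but Csf1r, Adgre1 and Cx3cr1 were lowest in Lactating replicate 3. Csf1r, the receptor for the growth factor that macrophages need, was at 1377, 1287 and 1146 CPM in Pregnant replicates 1 to 3 and at 1649, 1669 and 489 in Lactating replicates 1 to 3. The fitted log2 fold change was -0.00 ± 0.36 (SE), with an adjusted p of 1 in edgeR's quasi-likelihood test with Benjamini-Hochberg adjustment over all tested genes. Lactating replicate 3 was the low library here, and without it the change was 0.33 ± 0.15 (adjusted p = 0.265). Adgre1, which encodes F4/80, was at 478, 673 and 671 CPM in pregnancy and 981, 901 and 263 in lactation, and Itgax, which encodes CD11c, at 302, 283 and 543 against 374, 499 and 296. Neither passed the test (adjusted p = 0.802 and 0.964), and the stages overlapped for both. Cx3cr1, the fractalkine receptor, had 317, 226 and 349.8 CPM in pregnancy and 211, 226 and 181 in lactation (adjusted p = 0.182). Of the markers of other blood cells, Cd3e of T cells had no count in any of the 6 libraries, and S100a8 of neutrophils had none outside Pregnant replicate 1, where it reached 0.334 CPM. T and NK cell genes together took 0.00672% to 0.0122% of the counts in pregnancy and 0.0027% to 0.00966% in lactation. Neutrophil and monocyte genes took 0.0169% to 0.0255% and 0.00873% to 0.044%, the most in Lactating replicate 3. Dendritic cell genes took 0.0613%, 0.0492% and 0.0559% in pregnancy and 0.045%, 0.0572% and 0.0469% in lactation. Of 12 tested, 1 rose (Ccl22, given below) and none fell, and the median log2 fold change was 0.64 (0.27 without Lactating replicate 3). In all 3 Lactating libraries 5 lay above every Pregnant one and 1 below, beside 9.50% and 17.1% of all tested genes. B and plasma cell genes took 0.0249%, 0.019% and 0.0192% in pregnancy and 0.0258%, 0.129% and 0.0817% in lactation. Of these, Igkc, an antibody light chain, had no count in pregnancy or in Lactating replicate 1 and 808 and 234 CPM in Lactating replicates 2 and 3. The part of these other cell types in the results was not tested. Of the luminal epithelial markers, Epcam was at 208, 188 and 171 CPM in pregnancy and 69, 107 and 149 in lactation (adjusted p = 0.586).

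In the whole table, 488 of 12672 tested genes differed between lactation and pregnancy at an adjusted p under 0.05, which is 3.85%. Of these, 336 were higher in lactation (2.65% of tested genes) and 152 were lower (1.20%). Without Lactating replicate 3, 689 of 13426 genes differed (5.13%), 444 of them higher (3.31%) and 245 lower (1.82%). The calls overlapped: 417 of the 488 were also called without that library, and all 488 kept their sign. Leaving out 1 Pregnant library instead left 230, 194 or 291 calls, for replicates 1, 2 and 3, and 513 or 396 without Lactating replicates 1 and 2. The call held in all 6 of these refits for 172 genes. For 484 of the 488 the stages did not overlap, against 26.6% of all tested genes (9.50% with every Lactating library above every Pregnant one and 17.1% below). The median log2 fold change of all tested genes was -0.14, and -0.25 without Lactating replicate 3, so list medians are read against those values, and counts of called members against the 2.65% and 1.20% of all tested genes that were called higher and lower. A fit on the 6 compared libraries alone, whose filter, scaling and spread rest on them only, tested 10892 genes. It called 147, 138 of them among the 488. Its adjusted p is given for the named genes whose call held with each library left out but not in this fit.

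The list with the most calls was that of inflammatory and NF-kB target genes, of which 25 of 40 tested rose in lactation, from a log2 fold change of 0.93 to 5.76, beside the 2.65% of all genes that rose. This list, like the others, was chosen with earlier results of these data known, so its count is a description and not independent support. The list's median log2 fold change was 1.76, and 39 of its 40 members had a positive value. Without Lactating replicate 3, 34 of 40 rose and the median was 2.11. The count was 16, 15 and 21 without Pregnant replicates 1, 2 and 3. Together the members took 1.35%, 1.00% and 1.54% of the counts of the Pregnant libraries and 6.42%, 5.30% and 2.98% of those of the Lactating libraries. Every Lactating library was above every Pregnant one, and Lactating replicate 3 was the lowest of its stage.

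The chemokines that draw neutrophils rose together. Cxcl3 was at 20.8, 11.2 and 13.1 CPM in the Pregnant libraries and at 537, 509 and 451 in the Lactating ones. The Lactating libraries lay close to each other, replicate 3 included, and far above pregnancy, a 33.2-fold difference of the means (log2 fold change 5.05 ± 0.49, edgeR adjusted p = 0.000295). Without Lactating replicate 3 the change was 5.07 ± 0.51 (adjusted p = 0.000148). Cxcl1, a ligand of the same receptor family, was at 620.2, 489 and 525 CPM in pregnancy and 5249.9, 4418 and 1674 in lactation. The stages did not overlap, although Lactating replicate 3 lay lower than the other 2, and the means differed 6.94-fold (log2 fold change 2.79 ± 0.37, adjusted p = 0.00191, and 3.10 ± 0.21 without that library). Cxcl2, the third such ligand, was at 2081, 1249 and 2648 CPM in pregnancy and 10085, 8975 and 5762 in lactation, a 4.15-fold difference (adjusted p = 0.00285). All 3 kept the call whichever library was left out, but Cxcl2 lost it in the 6-library fit (adjusted p = 0.0716). In virgin mice the same genes had 31.6 ± 20.1 (Cxcl3), 1234 ± 295 (Cxcl1) and 5082 ± 79.6 CPM (Cxcl2, all SD, n = 3), so Pregnant libraries were the lowest and Lactating libraries the highest of these 3 stages by their means.

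The promoters of these 3 genes and of Nfkbia, an inhibitor of NF-kB that also rose, are shown because they share a short sequence close to the start. The 250 bases before each annotated start were taken from RefSeq's promoters (GRCm38.p6), and the longest run of bases present in all 4, on either strand, was searched for. It was GGGAATTTCC, 10 bases long, which is a form of the kB site that NF-kB is known to bind. Of 18458 genes with a promoter entry, 20 held it (0.108%). Of the 25 risen genes of the list 17 had an entry, and these 4 were the ones that held the run. The 4 genes were chosen after their values and promoters were seen, so the count supports nothing, and a match of letters is a description and not a bound site. The 120 bases before each start follow, 5′ to 3′ on the strand of the gene, with the shared run in capitals. In Cxcl1, Cxcl2 and Cxcl3 it begins 71, 97 and 73 bases before the start, and in Nfkbia 29 bases before it and on the opposite strand. They are Cxcl1 on the plus strand (chr5:90891125-90891244), Cxcl2 on the plus strand (chr5:90903779-90903898), Cxcl3 on the plus strand (chr5:90785981-90786100) and Nfkbia on the minus strand (chr12:55492648-55492767).
Cxcl1: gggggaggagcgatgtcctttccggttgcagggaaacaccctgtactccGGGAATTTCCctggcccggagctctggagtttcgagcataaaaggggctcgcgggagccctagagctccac
Cxcl2: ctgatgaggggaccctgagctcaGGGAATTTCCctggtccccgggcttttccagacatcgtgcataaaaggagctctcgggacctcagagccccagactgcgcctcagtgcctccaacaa
Cxcl3: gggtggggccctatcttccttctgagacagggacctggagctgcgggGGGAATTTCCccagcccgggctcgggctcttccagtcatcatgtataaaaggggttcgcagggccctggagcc
Nfkbia: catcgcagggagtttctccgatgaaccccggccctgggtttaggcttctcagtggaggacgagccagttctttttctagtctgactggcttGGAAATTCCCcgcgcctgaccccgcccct

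Several chemokines of the CC family, which draw monocytes, macrophages and T cells, were measured too. Ccl9 was at 23.4, 29.6 and 21.1 CPM in pregnancy and 754, 803 and 352 in lactation, a 25.8-fold difference (log2 fold change 4.69 ± 0.38, adjusted p = 0.000148, and 4.93 ± 0.29 without Lactating replicate 3). Ccl5 was at 2.67, 5.62 and 6 CPM against 47.1, 80.4 and 38.5 (11.6-fold, adjusted p = 0.00528). Ccl22, a ligand of CCR4 that dendritic cells also make, was at 15.5, 11.9 and 7.83 CPM against 107, 188 and 38.4 (9.46-fold, adjusted p = 0.00561). For each of these 3 the stages were far apart and the call held whichever library was left out, but that of Ccl22 was lost in the 6-library fit (adjusted p = 0.0646). Ccl4 was at 1123, 788 and 964 CPM in pregnancy and 13745, 9338 and 3012 in lactation, and its neighbour Ccl3 at 700.4, 556 and 719 against 8902, 6731 and 1715. Both rose (adjusted p = 0.0046 for Ccl4 and 0.00484 for Ccl3, and 0.06 and 0.0676 in the 6-library fit), but the annotated spans of these neighbours overlap and the strand setting of the counting is not given, so their reads cannot be told apart fully. Ccl7, a monocyte attractant, was at 3.22, 0.344 and 1.82 CPM against 191, 96.7 and 5.62. Its 54.5-fold difference rested on Lactating replicates 1 and 2, and the call (adjusted p = 0.0389) was lost without any 1 of Pregnant replicates 1 to 3 (adjusted p = 0.108, 0.164 and 0.147) or Lactating replicates 1 and 2 (0.0945 and 0.0683). Ccl2, its relative, was at 15.9, 16.4 and 22.4 CPM against 117, 53 and 9.04, where Lactating replicate 3 lay below pregnancy, and it was called only without that library (adjusted p = 0.221 with it and 0.021 without).

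Among the cytokines, the anti-inflammatory Il10 and the inflammatory Il1b and Tnf rose side by side. Il10, which signals macrophages to curb inflammation, was at 105, 71.9 and 134 CPM in the Pregnant libraries and at 1183, 1238 and 491 in the Lactating ones. All Lactating libraries lay above pregnancy, a 9.37-fold difference of the means (log2 fold change 3.23 ± 0.38, edgeR adjusted p = 0.000879, and 3.49 ± 0.29 with an adjusted p of 3.78e-05 without Lactating replicate 3). Il1b, the precursor of a main fever cytokine, was at 1289.7, 793 and 1472 CPM against 9048, 6621 and 2722, 5.17-fold higher (adjusted p = 0.0061, and 0.0894 in the 6-library fit). Tnf was at 235, 160.1 and 156 CPM against 1447, 1309 and 361, 5.65-fold higher (adjusted p = 0.01), a call that was lost without Pregnant replicate 2 (adjusted p = 0.0625) or 3 (0.0539). Ebi3, a subunit shared by the cytokines IL-27 and IL-35, was at 5.11, 5.39 and 4.1 CPM against 75.4, 53.2 and 59.6, with the 3 Lactating libraries alike (12.9-fold, adjusted p = 0.00127). Il10ra, which encodes the ligand-binding chain of the IL-10 receptor, was at 153, 143 and 148 CPM against 218, 234 and 219.9 and did not pass (adjusted p = 0.151).

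A further set of cytokine genes was high in Lactating replicates 1 and 2 and low in replicate 3. Il1rn, the antagonist of the IL-1 receptor, was at 437, 371 and 389.7 CPM in pregnancy and at 2693, 3419 and 247 in lactation. Il6 was at 8.23, 10.6 and 17.4 CPM against 202, 221 and 1.05, and Ptgs2, the inducible enzyme of prostaglandin synthesis, at 90.6, 57.4 and 47.6 against 431, 574 and 2.81. In each case Lactating replicate 3 lay below every Pregnant library while the other 2 lay far above. None passed with all libraries (edgeR adjusted p = 0.0647, 0.129 and 0.254), and all passed without Lactating replicate 3 (1.2e-05, 0.000367 and 0.000117). Il1a, the other IL-1 agonist, followed the same order, with 1031, 911 and 614 CPM against 6375, 3894 and 525 (adjusted p = 0.0913, and 0.000114 without that library). Il1r2, a decoy receptor that binds IL-1 without signalling, was at 232, 177 and 241 CPM against 1284, 1377 and 409 and rose (4.73-fold, adjusted p = 0.0211). That call was lost without any other single library (adjusted p = 0.0844, 0.115 and 0.075 without Pregnant replicates 1 to 3, and 0.0567 and 0.0674 without Lactating replicates 1 and 2).

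**Figure D2:**
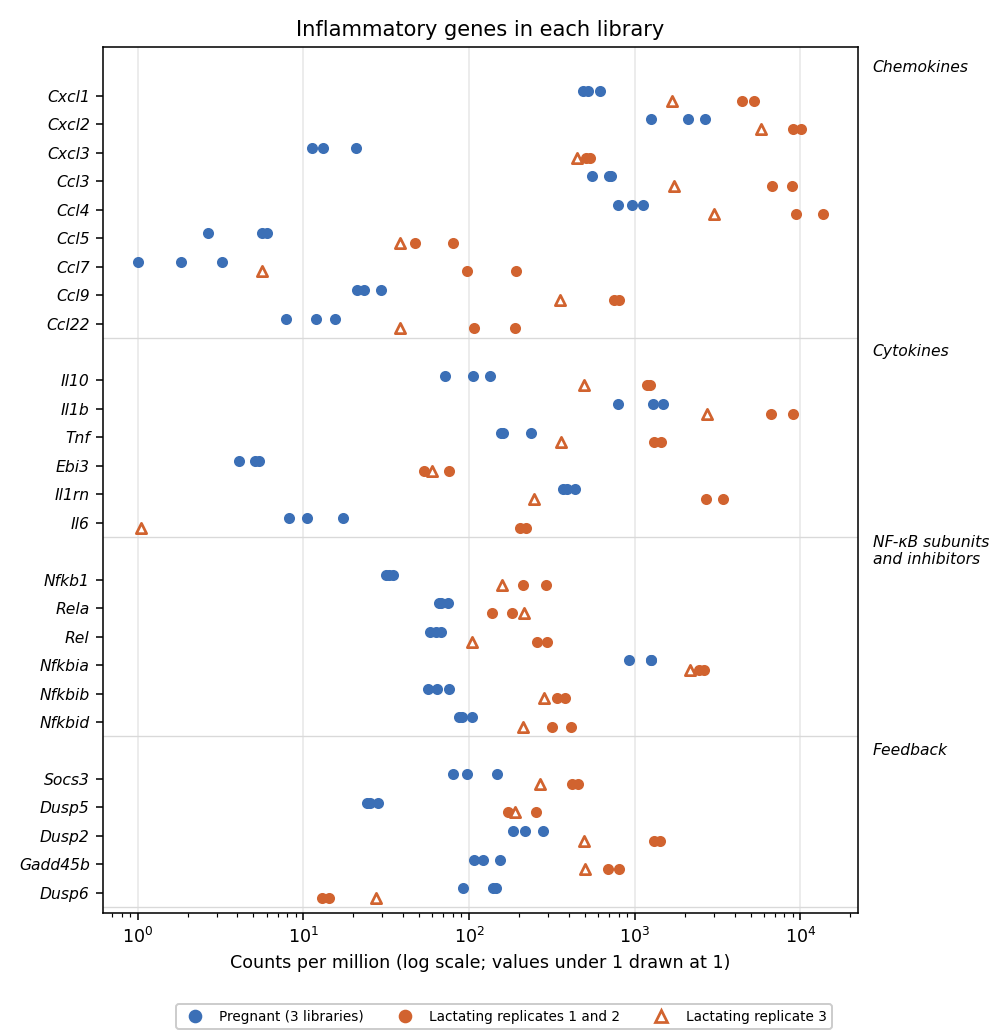
CPM (x axis, log scale, values under 1 drawn at 1) of 26 inflammatory genes in each of the 6 libraries, by role. The 3 Pregnant libraries (blue circles) lie below Lactating replicates 1 and 2 (orange circles) for every gene except Dusp6, while Lactating replicate 3 (open triangle) lies with its stage for Cxcl3 and Ebi3 and below pregnancy for Il1rn and Il6.

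Subunits and inhibitors of NF-kB rose together. Nfkb1, which encodes the p50 subunit, was at 31.5, 32.9 and 34.5 CPM in pregnancy and 211, 292 and 157 in lactation, 6.68-fold higher (log2 fold change 2.74 ± 0.34, edgeR adjusted p = 0.00107, and 2.88 ± 0.33 without Lactating replicate 3). Rela, which encodes p65, the partner with the activating domain, was at 67.6, 74.9 and 66 CPM against 138, 181 and 215, 2.56-fold higher (adjusted p = 0.00578, and 0.052 in the 6-library fit). Of the inhibitors, Nfkbib (IkB-beta) was at 76.1, 63.9 and 56.6 CPM against 380.0, 340.3 and 284, 5.11-fold higher (adjusted p = 0.000443). The stages were well apart for all 3, and Lactating replicate 3 was not the lowest of its stage for Rela. Nfkbid was 3.33-fold higher (adjusted p = 0.0061) and Nfkbia, the inhibitor whose promoter is printed above, 2.11-fold higher, at 1259, 919.8 and 1248 CPM against 2629.8, 2448 and 2166 (adjusted p = 0.00962). The Nfkbia call was lost without Pregnant replicate 2 (adjusted p = 0.0595), and that of Rel, 3.47-fold higher, without Pregnant replicate 1 (0.0515). Nfkb2, Relb, Nfkbie, Nfkbiz and Tnfaip3, the last an enzyme that dampens the pathway, also rose, from 1.91-fold to 2.62-fold, and each lost its call without 2 or more of the other single libraries. Nfkbie was the 1 of these that was not called without Lactating replicate 3 (adjusted p = 0.0267 with it and 0.0687 without).

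Other targets of the pathway followed. Cd83, a surface protein of activated antigen-presenting cells, was at 844, 576 and 883 CPM in pregnancy and at 9328, 7404 and 2625 in lactation, 8.4-fold higher (adjusted p = 0.00159, and 6.49e-06 without Lactating replicate 3). Tnfaip2 was at 168, 111 and 203 CPM against 627, 862 and 666, 4.47-fold higher (adjusted p = 0.000717), and Birc3, an inhibitor of cell death in TNF signalling, was 2.63-fold higher (adjusted p = 0.00491). The stages did not overlap for these 3, and each call held whichever library was left out, but the 6-library fit ended those of Cd83 (adjusted p = 0.0505) and Birc3 (0.0588). Nlrp3, the sensor of an inflammasome, was 3.05-fold higher (adjusted p = 0.0168) and lost its call without Pregnant replicates 1 and 2 (0.0761 and 0.0824) and Lactating replicates 1 and 2 (0.0521 and 0.063). Bcl2a1b, a survival gene with near-identical copies whose reads may be split between them, was 3.32-fold higher (adjusted p = 0.0132). That call was lost without Pregnant replicate 1 (0.0713) or 2 (0.0818). Acod1 alone of the 40 members had a negative fitted change (-5.71), and it did not pass.

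Immediate early and dissociation stress genes, which cells switch on quickly when stimulated, mostly had a positive change (32 of 34 tested). Of 34 tested, 12 rose and 1 fell, beside 2.65% and 1.20% of all genes, and the median log2 fold change was 1.25 (15, 1 and 1.15 without Lactating replicate 3, and 8 rises without Pregnant replicate 2). Dusp5, a phosphatase that switches off ERK kinases, was at 25.1, 28.1 and 24.2 CPM in pregnancy and 172, 254 and 190.1 in lactation, 7.95-fold higher (log2 fold change 2.99 ± 0.28, edgeR adjusted p = 0.000276). Dusp6, another ERK phosphatase, went the other way, from 145, 140.4 and 91.6 CPM to 14.2, 13 and 27.6, 6.9-fold lower (log2 fold change -2.78 ± 0.37, adjusted p = 0.00193). Lactating libraries thus lay on opposite sides of pregnancy for these 2 phosphatases, without overlap, and both calls held whichever library was left out. Gadd45b, a stress gene, was at 153, 107 and 121 CPM against 685, 809 and 502, 5.23-fold higher (adjusted p = 0.000295), and Dusp2 was 4.74-fold higher (adjusted p = 0.00493). Nr4a1, Ppp1r15a, Btg2, Csrnp1 and Klf6 rose 2.38-fold to 4.54-fold and also kept their calls. In the 6-library fit the calls of Dusp2, Nr4a1, Btg2, Csrnp1 and Klf6 were lost (adjusted p = 0.0663, 0.0616, 0.0663, 0.0531 and 0.0521). Fos, the best-known gene of the list, was at 610.3, 438 and 547 CPM against 618, 492 and 541 (log2 fold change 0.05 ± 0.21, adjusted p = 0.946). Virgin and post-weaning libraries had 1695 ± 304 and 1777 ± 315 CPM of Fos (SD, n = 3 each), above both stages compared here. The whole list took 0.924%, 0.729% and 0.826% of the counts in pregnancy and 1.57%, 1.37% and 1.35% in lactation. Its shares were higher still in virgin (1.77%, 2.50% and 2.77%) and post-weaning libraries (2.13%, 2.06% and 2.02%). The part that dissociation plays in these values was not tested.

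Feedback regulators of cytokine signalling split in direction. Of 19 tested, 3 rose and 1 fell, with and without Lactating replicate 3. Socs3, the inhibitor of IL-6 type receptor signalling that IL-10 also induces, was at 146, 79.5 and 97.6 CPM against 418, 454 and 267, 3.52-fold higher (adjusted p = 0.00445). Il18bp, which binds and neutralises IL-18, was at 185, 309 and 251 CPM in pregnancy and at 5.72, 17.5 and 0.439 in lactation, 31.4-fold lower (log2 fold change -5.01 ± 0.91, adjusted p = 0.0104, and -4.47 ± 0.57 without Lactating replicate 3). The Lactating libraries were all far below pregnancy, and both genes kept the call whichever library was left out but not in the 6-library fit (adjusted p = 0.0554 for Socs3 and 0.0927 for Il18bp). Cebpb, a transcription factor of inflammatory and lipid gene programs, was at 619, 410.0 and 418 CPM against 1581, 1742 and 1408, 3.27-fold higher (adjusted p = 0.0026).

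Antigen presentation by MHC class II depended on Lactating replicate 3. With all libraries none of 15 tested genes rose in edgeR's test (5 had an unadjusted p under 0.05, and DESeq2 called 2 and limma-voom with quality weights 9), and Ifi30 fell. Without Lactating replicate 3, 8 of 15 rose and the list's median was 0.93 instead of 0.63. Cd74, the chaperone of class II molecules, was at 55657, 49845 and 37703 CPM in pregnancy and at 124620, 115468 and 31319 in lactation. Lactating replicates 1 and 2 thus had more than any Pregnant library and replicate 3 less (log2 fold change 0.92 ± 0.41, adjusted p = 0.257, and 1.28 ± 0.15 with an adjusted p of 0.000346 without replicate 3). The class II chains H2-Ab1, H2-Aa and H2-Eb1 followed this order, with changes of 0.93 ± 0.14, 0.84 ± 0.16 and 0.90 ± 0.12 without replicate 3 (adjusted p = 0.00223, 0.00975 and 0.000825). Cd86, a costimulatory ligand for T cells, was at 975, 1075 and 658 CPM against 2690.3, 3294 and 683 (adjusted p = 0.142, and 0.000812 without replicate 3). Ciita, the master regulator of class II transcription, was at 85.5, 94.4 and 71.9 CPM against 75.4, 62.7 and 88.5, and the stages overlapped (adjusted p = 0.845, and 0.644 without replicate 3). Ifi30, a reductase that opens disulfide bonds of antigens, fell in every library, from 659, 763 and 679 CPM to 174, 201 and 171, 3.85-fold lower (log2 fold change -1.94 ± 0.22, adjusted p = 0.000717).

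Of MHC class I and peptide loading genes, none of 20 tested passed in edgeR's test in either direction, with or without Lactating replicate 3 (3 were lower with all libraries at an unadjusted p under 0.05, DESeq2 called 1 lower and limma-voom none), and the median was -0.32. Interferon genes changed in small numbers. Of 34 type I interferon-stimulated genes, 2 rose, and the median was 0.16 (3 and 0.25 without Lactating replicate 3). The 2 were Oasl1, at 20, 21 and 36.4 CPM against 150.4, 265 and 367, 10.1-fold higher (adjusted p = 0.00228), and Rsad2, the antiviral protein viperin, at 15.9, 64.4 and 51.6 against 235, 485 and 189, 6.9-fold higher (adjusted p = 0.0115). Both were higher in all Lactating libraries and kept their calls, except that Rsad2 lost it in the 6-library fit (adjusted p = 0.0876), whereas Isg15, a ubiquitin-like protein of the same response, was at 13.5, 19.7 and 22.5 CPM against 44.4, 60.7 and 44.8 and did not pass (adjusted p = 0.0837). Ifih1, an RNA sensor, passed only without Lactating replicate 3 (adjusted p = 0.171 with it and 0.0458 without). Of 24 genes of the interferon-gamma response, Irf1 (2.78-fold, adjusted p = 0.0055) and the kinase Jak2 (3.72-fold, 0.0126) rose, while the GTPase Gbp7 (4.4-fold, 0.00358) and the receptor chain Ifngr1 (2.45-fold, 0.0265) fell. The list's median turned from 0.29 to -0.31 without Lactating replicate 3, again with 2 rises and 2 falls. It took 0.246%, 0.296% and 0.244% of the counts in pregnancy and 0.198%, 0.184% and 0.309% in lactation. Gbp7 was at 76.6, 87 and 82 CPM in pregnancy and 17.3, 20.1 and 18.4 in lactation, far apart and with little spread. The Jak2 call was lost without Pregnant replicate 1 (adjusted p = 0.0551) or 3 (0.0532), and that of Ifngr1 without Pregnant replicate 1 (0.0713) or 2 (0.13).

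Surface receptors gave some of the clearest separations. Cd207, which encodes the lectin langerin, was at 123, 77.5 and 130.0 CPM in the Pregnant libraries and at 2992, 2558 and 1413 in the Lactating ones. The lowest Lactating library was far above the highest Pregnant one, and the means differed 21.1-fold (log2 fold change 4.40 ± 0.37, edgeR adjusted p = 0.000163, and 4.60 ± 0.31 without Lactating replicate 3). Virgin and post-weaning libraries had 288 ± 87.8 and 297 ± 44.9 CPM. Lilr4b, an inhibitory leukocyte receptor with a near-identical neighbour that could share its reads, was at 209, 173 and 158 CPM against 2766, 2431 and 2231, 13.7-fold higher (adjusted p = 7.6e-05). Itga5, the alpha chain of the fibronectin receptor, was at 42.6, 18.8 and 32.7 CPM against 527, 520.2 and 344, 14.8-fold higher (adjusted p = 0.000315). It was the 1 called member of 22 tested adhesion molecules and chemokine receptors, of which 4 rose without Lactating replicate 3, the chemokine receptor Ccr1 among them (adjusted p = 0.000292, against 0.134 with it). These 3 genes, Cd207, Lilr4b and Itga5, kept their calls whichever library was left out.

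Cd14, the co-receptor for bacterial lipopolysaccharide, was at 2249, 1426 and 2397 CPM in pregnancy and at 14274, 13045 and 3002 in lactation, 4.99-fold higher (adjusted p = 0.0162, and 1.71e-05 without Lactating replicate 3). Lyz2, which encodes lysozyme of macrophages and has a close copy, was at 26955, 27315 and 24327 CPM against 8971, 6384 and 2101, 4.5-fold lower (log2 fold change -2.17 ± 0.44, adjusted p = 0.019). These 2 markers of resident macrophages thus moved in opposite directions, without overlap of the stages. The Cd14 call was lost without Pregnant replicates 1, 2 and 3 (0.066, 0.0927 and 0.0552) or Lactating replicate 2 (0.052), and the Lyz2 call without Pregnant replicates 1 and 2 (0.0605 and 0.0679) or Lactating replicate 2 (0.0518). Over the 22 tested identity genes, 2 rose and 1 fell, with Cebpb beside this pair, and 6 rose without Lactating replicate 3. Mrc1, the mannose receptor of stromal macrophages, was low in both stages, at 5.45, 5.85 and 2.73 CPM against 21.7, 9.68 and 0 (adjusted p = 0.599), while virgin and post-weaning libraries had 99 ± 30.9 and 159 ± 27.6 CPM. Of genes shared with microglia, P2ry12, a purine receptor, was at 126, 152 and 109 CPM against 23, 37.8 and 1.67 and passed only without Lactating replicate 3 (log2 fold change -2.14 ± 0.35, adjusted p = 0.00393, against 0.0746 with it). Cst3 and Mef2c passed in the other direction without that library (adjusted p = 0.00357 and 0.00584, against 0.116 and 0.0592). Sparc, at 6.56, 3.56 and 6.96 CPM in pregnancy and 10.9, 24.3 and 389 in lactation, had an adjusted p of 0.0469 with it and 0.15 without, and of 0.158, 0.198 and 0.147 without Pregnant replicates 1, 2 and 3.

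Lipid genes changed in both directions. Cd36, a scavenger receptor that takes up fatty acids and oxidised lipoproteins, was at 295, 73.8 and 86.4 CPM in pregnancy and at 1949, 2426 and 1790.5 in lactation, 13.5-fold higher (log2 fold change 3.76 ± 0.51, edgeR adjusted p = 0.0022, and 3.80 ± 0.52 without Lactating replicate 3). Pparg, the nuclear receptor that drives Cd36 in macrophages, was at 3.45, 2.41 and 8.65 CPM against 63.9, 48.2 and 87.7, 13.8-fold higher (adjusted p = 0.00208). Lrp1, a receptor for lipoproteins and dying cells, was at 6, 6.77 and 5.59 CPM against 37.8, 43.7 and 134, 11.7-fold higher (adjusted p = 0.00334). All Lactating libraries were above all Pregnant ones for these uptake genes, and for Lrp1 the highest was Lactating replicate 3. Angptl4, a PPAR target that inhibits lipoprotein lipase, fell from 54.7, 52.8 and 30.1 CPM to 0, 1.28 and 0 (log2 fold change -6.91 ± 1.23, adjusted p = 0.00946). Scd1, the desaturase that makes oleic acid, fell from 31.1, 15.4 and 15.1 CPM to 0.52, 0.731 and 0.527, 34.7-fold lower (adjusted p = 0.0061). These 5 genes kept their calls whichever library was left out, but Angptl4 lost it in the 6-library fit (adjusted p = 0.0902). Nr1h3, which encodes the sterol sensor LXR-alpha, was 9.19-fold lower (adjusted p = 0.0351, lost without Pregnant replicates 1 to 3 with 0.0933, 0.109 and 0.103 and without Lactating replicate 1 with 0.0632). In all, 2 of 26 tested genes of fatty acid synthesis and of PPAR and LXR action rose and 3 fell, or 2 and 6 without Lactating replicate 3.

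Of 25 tested genes of cholesterol synthesis and its regulator SREBP2, 5 rose and 22 had a positive change, with a list median of 1.71. The members took 0.0685%, 0.065% and 0.0719% of the counts in pregnancy and 0.207%, 0.192% and 0.0972% in lactation. Insig1, the sterol-sensing brake on SREBP2, was at 26, 24.1 and 27.9 CPM in pregnancy and 124, 141 and 65.1 in lactation, 4.23-fold higher (adjusted p = 0.0247). Fdps, an enzyme of the mevalonate pathway, was at 12.6, 11.6 and 14.3 CPM against 69.5, 53.4 and 47.8, 4.44-fold higher (adjusted p = 0.0211). Both rose in every Lactating library, as did Pmvk (2.59-fold, adjusted p = 0.0343), Srebf2 (3.96-fold, 0.0411) and Msmo1 (5.49-fold, 0.0344). None of the calls held against every single library left out: the list had 0 calls without Pregnant replicate 1, 2 or 3 or Lactating replicate 2, 1 without Lactating replicate 1 and 7 without Lactating replicate 3. At an unadjusted p under 0.05, 8 members were higher with all libraries, and DESeq2 called 7 and limma-voom 11. Cyp51, a demethylase of the pathway, was at 50.4, 47.1 and 67.2 CPM against 421, 444 and 28.1 and passed only without Lactating replicate 3 (adjusted p = 0.000177, against 0.0882). Hmgcs1, the first committed enzyme, was at 109.5, 97.5 and 70.6 CPM against 131, 108 and 105 and did not pass (adjusted p = 0.701), with 13.1 ± 5.41 CPM in virgin mice (SD, n = 3).

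Genes of the oxidative stress response and of iron handling rose in 7 of 24 tested cases and fell in 1, with the same counts without Lactating replicate 3. Srxn1, which reactivates oxidised peroxiredoxins, was at 65.8, 31.2 and 58.7 CPM in pregnancy and at 624, 622 and 711 in lactation, 12.6-fold higher (log2 fold change 3.65 ± 0.34, edgeR adjusted p = 0.000276). Txnrd1, thioredoxin reductase, was at 220.1, 199 and 179.8 CPM against 903, 1047 and 691, 4.41-fold higher (adjusted p = 0.000295), and Sqstm1, the autophagy receptor p62, at 447, 485 and 469.6 against 2039, 2025 and 2424, 4.63-fold higher (adjusted p = 0.000148). Hmox1, which breaks down heme, was at 55.9, 54.5 and 54.5 CPM against 192, 230.2 and 394, 4.95-fold higher (adjusted p = 0.00578). In this group Lactating replicate 3 lay with the other 2 or above them except for Txnrd1, and each of these 4 calls held whichever library was left out.

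Iron and metal genes changed in both directions. The divalent metal importers Slc11a1 and Slc11a2 were 5.74-fold and 7.35-fold higher (adjusted p = 0.00146 and 0.000438). Slc11a1, which pumps metals out of phagosomes, was at 157, 115 and 113 CPM in pregnancy and 840.0, 938 and 430.4 in lactation. Slc40a1, ferroportin, the known iron exporter of cells, was at 165, 188 and 196 CPM in pregnancy and at 0.173, 9.32 and 0 in lactation, 57.7-fold lower (log2 fold change -5.96 ± 1.19, adjusted p = 0.0165). Every Lactating library was far below pregnancy, although the call was lost without Pregnant replicate 2 (adjusted p = 0.0546), and post-weaning libraries had 669 ± 345 CPM. The heavy chain of ferritin, Fth1, which has processed copies that may share reads, was 1.72-fold higher (adjusted p = 0.0344, lost without Pregnant replicates 1, 2 and 3 with 0.149, 0.167 and 0.0562 and Lactating replicates 1 and 2 with 0.0967 and 0.107). Metallothioneins bind zinc and copper and answer to glucocorticoids. Mt1 was at 538, 512 and 649 CPM against 1851, 2373 and 1507, 3.37-fold higher (adjusted p = 0.000892), and Mt2 was 3.27-fold higher (adjusted p = 0.0046). Of 16 tested glucocorticoid response genes, 5 rose, these 2 with Errfi1, Dusp1 and Il1r2, 6 without Lactating replicate 3, and 3 without Pregnant replicate 2 or 3 or Lactating replicate 1 or 2. Fkbp5 and Per1, also known targets of the receptor, did not pass (adjusted p = 0.856 and 0.138).

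Lysosomal genes gave 2 falls among 47 tested, beside 1.20% of all genes, with a list median of -0.33 (2 rises, 3 falls and -0.05 without Lactating replicate 3). Ctsd, the aspartic protease cathepsin D, was at 3077, 3301 and 2227 CPM in pregnancy and at 237, 265 and 179 in lactation, 12.6-fold lower (log2 fold change -3.66 ± 0.41, edgeR adjusted p = 0.000717, and -3.56 ± 0.44 without Lactating replicate 3). Acp2, an acid phosphatase, was at 159.9, 203 and 240.1 CPM against 49.6, 85.7 and 59.6, 3.09-fold lower (adjusted p = 0.0106). The stages did not overlap for either gene, and both calls held whichever library was left out, but that of Acp2 was lost in the 6-library fit (adjusted p = 0.0604). Together the list took 6.81%, 7.32% and 6.57% of the unscaled counts in pregnancy and 4.91%, 5.08% and 2.33% in lactation. These shares were lower in every Lactating library (exact permutation test over samples, two-sided p = 0.1, the smallest that 3 against 3 can give). The CPM use scaling factors of 1.06, 1.04 and 1.14 for the Pregnant libraries and 0.79, 0.79 and 1.09 for the Lactating ones. On that scale Lactating replicates 1 and 2 lie closer to pregnancy than their shares show. Scarb2, a lysosomal membrane protein, was at 517, 598 and 612 CPM against 259, 242 and 18 and passed only without Lactating replicate 3 (adjusted p = 0.178 with it and 0.00464 without). Acp5, the tartrate-resistant phosphatase of osteoclasts, was at 1962, 2025 and 1919 CPM against 3221, 3483 and 1547 and rose only without that library (adjusted p = 0.349 and 0.00694).

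**Figure D3:**
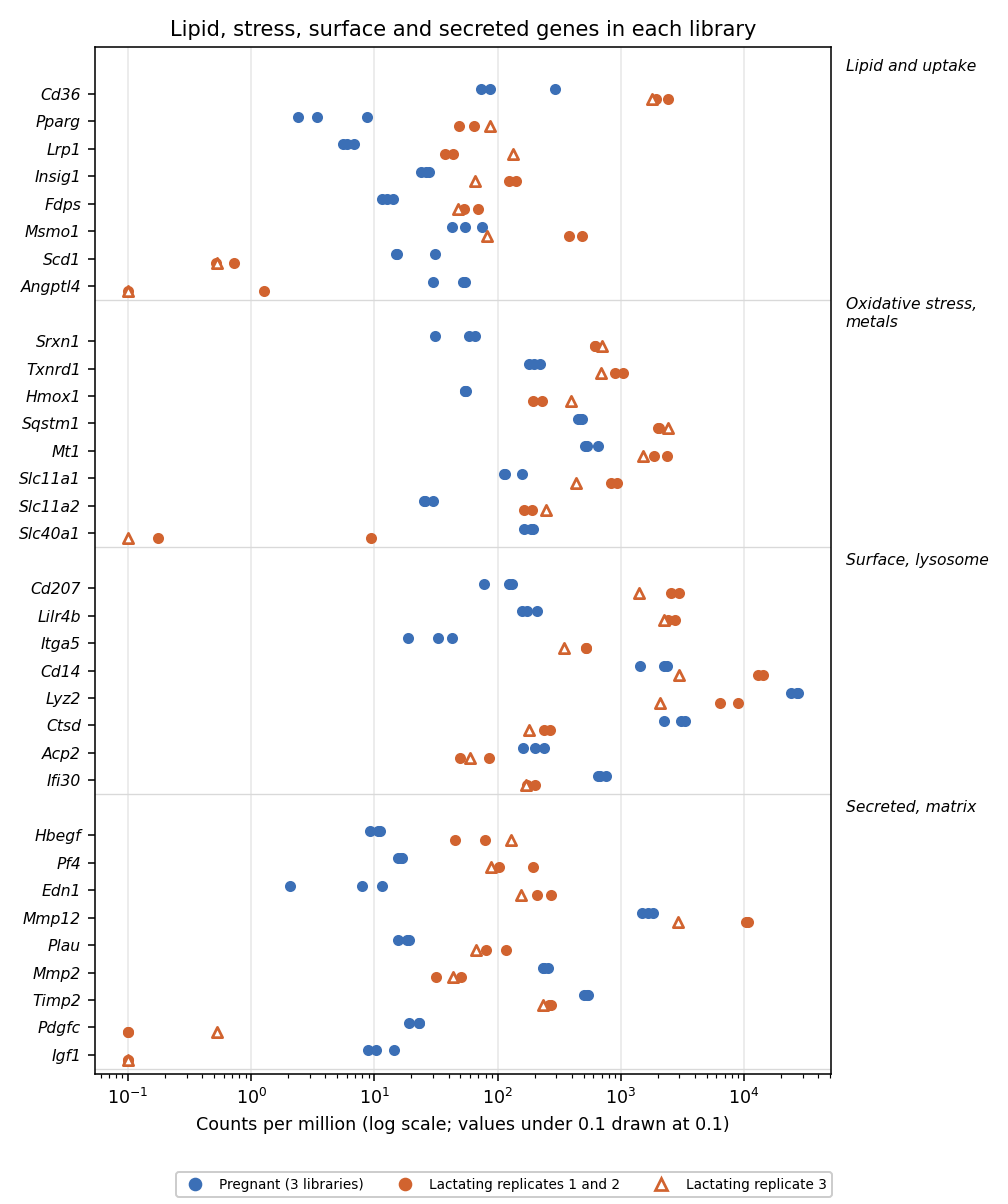
CPM (x axis, log scale, values under 0.1 drawn at 0.1) of 33 lipid, stress, surface and secreted genes in each of the 6 libraries. Pregnant libraries are blue circles, Lactating replicates 1 and 2 orange circles and Lactating replicate 3 an open triangle, and Cd36, Srxn1 and Cd207 lie to the right of pregnancy while Angptl4, Slc40a1, Ctsd and Igf1 lie to the left.

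Of 20 tested secreted growth factors, 2 rose and 3 fell, with a list median of -0.04. Without Lactating replicate 3, 4 rose and 3 fell, and 1 rose without any 1 of the Pregnant libraries or Lactating replicate 2. Igf1, insulin-like growth factor, was at 8.9, 10.2 and 14.4 CPM in pregnancy and had no count in any Lactating library. Against a floor of 3 counts over the Lactating libraries it was at least 93.2-fold lower (adjusted p = 0.000717). Pdgfc, a ligand of the PDGF receptor of fibroblasts, was at 23, 19 and 23 CPM against 0, 0 and 0.527 (adjusted p = 0.0026), and Pdgfa was 3.17-fold lower (adjusted p = 0.0341, lost without Pregnant replicates 1, 2 and 3 with 0.062, 0.157 and 0.105 and Lactating replicate 2 with 0.0807). Hbegf, a ligand of the EGF receptor, was at 10.7, 9.18 and 11.1 CPM in pregnancy and 79.7, 45 and 128 in lactation, 8.17-fold higher (log2 fold change 3.03 ± 0.48, adjusted p = 0.00528, and 2.54 ± 0.45 without Lactating replicate 3). Igf1 and Pdgfc thus lay below pregnancy and Hbegf above it in every Lactating library. Csf1, the ligand of the Csf1r receptor, was at 0.445, 2.41 and 1.66 CPM against 14, 73.6 and 28.9, 25.8-fold higher (adjusted p = 0.0293, lost without Pregnant replicates 1, 2 and 3 with 0.105, 0.0941 and 0.111 and Lactating replicate 2 with 0.13). Edn1, endothelin, a constrictor peptide that macrophages can make, was at 8.01, 2.06 and 11.6 CPM against 208, 270.1 and 156, 29.3-fold higher (adjusted p = 0.00483). Pf4, a chemokine of platelets and of stromal macrophages, was at 16.5, 16.6 and 15.7 CPM against 194, 103 and 88.7, 7.89-fold higher (adjusted p = 0.000853). The list of stromal macrophage genes, 11 of them tested, had 1 rise (Pf4) and 1 fall (Igf1). Only 3 had a positive change, and the list median was -1.37 (-0.99 with 2 rises and 1 fall without Lactating replicate 3). Together its members took 0.385%, 0.565% and 0.304% of the counts in pregnancy and 0.185%, 0.163% and 0.0859% in lactation. These shares were lower in every Lactating library. Igf1, Pdgfc, Hbegf, Edn1 and Pf4 kept their calls whichever library was left out, but the 6-library fit ended those of Igf1 (adjusted p = 0.0676) and Pdgfc (0.0807).

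Among 20 tested matrix remodelling genes, 4 rose and 2 fell, and 5 rose without Lactating replicate 3. Mmp12, macrophage elastase, was at 1817, 1668 and 1491 CPM in pregnancy and at 10754, 10449 and 2946 in lactation, 4.85-fold higher (adjusted p = 0.00864, 6.49e-06 without Lactating replicate 3 and 0.0995 in the 6-library fit). Plau, the plasminogen activator urokinase, was at 18.2, 18.9 and 15.7 CPM against 80.7, 116 and 66.4, 4.99-fold higher (adjusted p = 0.0065). Its receptor Plaur passed only without Lactating replicate 3 (adjusted p = 0.0562 with it and 3.78e-05 without). Mmp2, gelatinase A, fell from 233, 255 and 238 CPM to 50.4, 31.4 and 43.4, 5.79-fold lower (adjusted p = 0.00432), and Timp2, an inhibitor that also helps to activate Mmp2, from 505, 531 and 543 to 261, 274 and 236, 2.05-fold lower (adjusted p = 0.0134). Elastase and urokinase were thus higher and gelatinase A lower in every Lactating library. The Timp2 call was lost without Pregnant replicate 2 (adjusted p = 0.0595), and the collagenase Mmp13, 4.1-fold higher (adjusted p = 0.0462), lost its call without Pregnant replicates 1, 2 and 3 (0.102, 0.199 and 0.146) or Lactating replicates 1 and 2 (0.118 and 0.112). The number of rises was 2 without any 1 of the Pregnant libraries. Timp3 had no count in pregnancy and 0.52, 7.86 and 154 CPM in lactation, at least 1107-fold higher against the floor of 3 counts over the Pregnant libraries, mostly from Lactating replicate 3 (adjusted p = 0.0252, and 0.00976 without that library). Its call was lost without Pregnant replicates 1, 2 and 3 (0.0794, 0.0891 and 0.095).

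Most cell cycle genes did not pass the test. In edgeR's test 2 of 48 tested genes fell, beside 1.20% of all genes, and none rose (0 at an unadjusted p under 0.05, in DESeq2 or in limma-voom), while 29 lay below every Pregnant library in all 3 Lactating ones, beside 17.1% of all tested genes. The list's median was -1.57, and without Lactating replicate 3 it was -2.64 with 9 falls. The members took 0.233%, 0.241% and 0.217% of the counts in pregnancy and 0.0643%, 0.0449% and 0.137% in lactation, with Lactating replicate 3 the highest of its stage. Hmmr, a spindle protein and hyaluronan receptor, was at 33.8, 29 and 33.5 CPM in pregnancy and had no count in lactation, at least 246-fold lower (adjusted p = 0.011, lost without Pregnant replicate 2 with 0.0505). Nusap1, a spindle protein, was at 73.9, 84.3 and 50.2 CPM against 1.04, 0 and 0.527 (adjusted p = 0.0266, lost without Pregnant replicates 1, 2 and 3 with 0.0784, 0.0927 and 0.0645 and Lactating replicate 2 with 0.0668). The list had 1, 0 and 1 falls without Pregnant replicates 1, 2 and 3, 4 and 1 without Lactating replicates 1 and 2, 7 in DESeq2, 19 in limma-voom and 11 at an unadjusted p under 0.05.

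Mki67, the proliferation marker Ki-67, was at 59.9, 76.5 and 103 CPM in pregnancy and at 25.6, 29.1 and 35.8 in lactation. The stages did not overlap, but the fitted change of -1.40 ± 0.70 did not pass (adjusted p = 0.304, and 0.32 without Lactating replicate 3). Ccnb1, a mitotic cyclin, was at 89.1, 75.3 and 21.2 CPM against 0, 0 and 18.6, and Tpx2, a spindle protein, at 36, 25 and 52.4 against 0.173, 0 and 20.1. Both were lowest in Lactating replicates 1 and 2 and near the lowest Pregnant library in replicate 3, and passed only without it (adjusted p = 0.0179 and 0.0138, against 0.343 and 0.447). Rrm2, which makes deoxynucleotides, followed the same order at 59, 52.3 and 52.5 CPM against 8.49, 7.67 and 28.7 (adjusted p = 0.0112 without that library, against 0.123). Ccnd2 and Cdkn1a, a cyclin of early G1 and the p21 inhibitor of cyclin-dependent kinases, are not on the list and were higher in lactation. Ccnd2 was at 1.78, 3.56 and 1.99 CPM in pregnancy and at 121, 123 and 136 in lactation, 51.8-fold higher with the Lactating libraries nearly equal (log2 fold change 5.70 ± 0.62, adjusted p = 0.000572, and 5.60 ± 0.63 without Lactating replicate 3). Cdkn1a was at 169, 99.1 and 121 CPM against 678, 641 and 460.1, 4.57-fold higher (adjusted p = 0.000991). Both kept the call whichever library was left out.

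**Figure D4:**
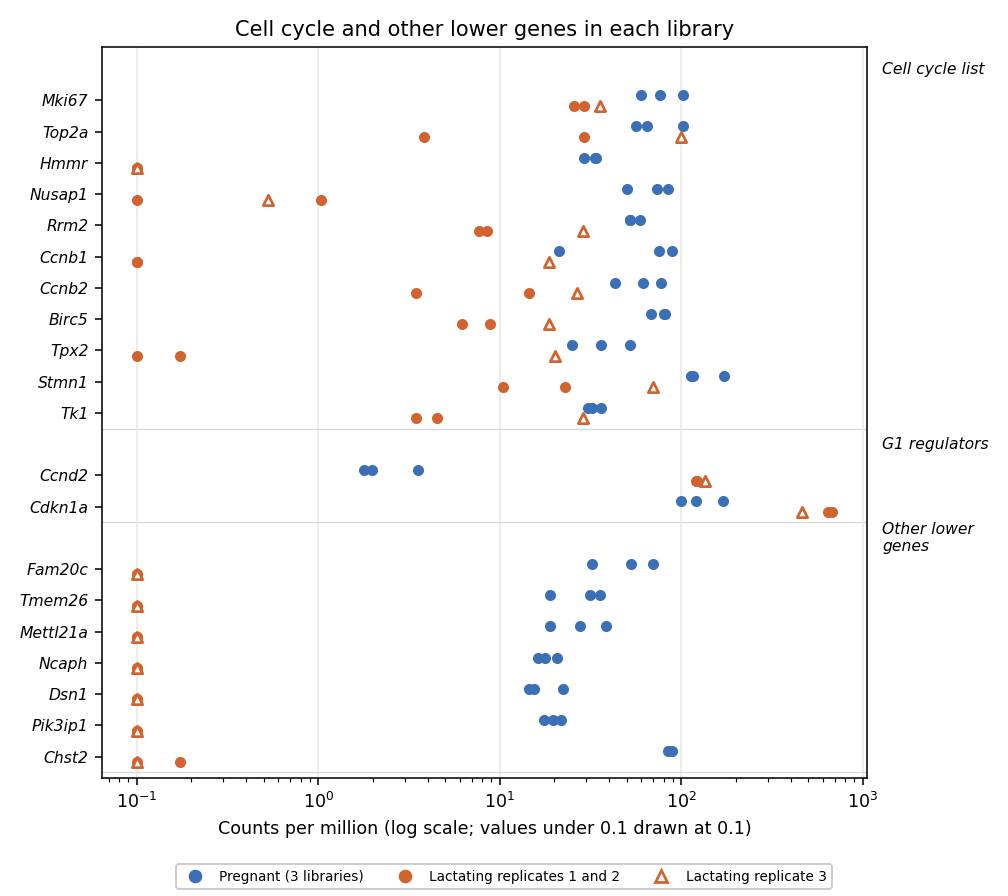
CPM (x axis, log scale, values under 0.1 drawn at 0.1) of 11 cell cycle genes, 2 regulators of G1 and 7 other lower genes in each of the 6 libraries. Lactating replicates 1 and 2 (orange circles) lie left of the Pregnant libraries (blue circles) for the cell cycle genes while Lactating replicate 3 (open triangle) lies nearer to pregnancy for Ccnb1, Tpx2, Top2a and Tk1, and Ccnd2 lies at 121 to 136 in all 3 Lactating libraries.

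Oxidative phosphorylation genes had low medians with few calls. Of 66 tested, 2 fell, Atp5g3 and Atp5j, subunits of ATP synthase, 2.09-fold and 2-fold lower (adjusted p = 0.0324 and 0.0389), and 4 had a positive change, with a median of -0.54 (3 falls and -0.51 without Lactating replicate 3), while 35 lay below every Pregnant library in all Lactating ones, beside 17.1% of all tested genes. Both calls were lost without Pregnant replicate 1, 2 or 3 or Lactating replicate 2, when the list had 0 calls. Only 1 of the 2 was also called without Lactating replicate 3. At an unadjusted p under 0.05, 21 members were lower, and DESeq2 called 10 and limma-voom 4. Of 29 glycolysis and hypoxia genes 1 rose, beside 2.65% of all genes: Pfkfb4, a regulator of glycolytic flux, at 11.8, 10.2 and 10.5 CPM against 20.4, 38.2 and 105 (adjusted p = 0.0359, lost without Lactating replicate 3 with 0.0866 and without Pregnant replicates 1, 2 and 3 with 0.127, 0.162 and 0.125). Of 20 transporters 2 rose, the glutamine carrier Slc1a5 (3.23-fold, adjusted p = 0.0175) and the peptide carrier Slc15a3 (2.52-fold, 0.0249), and 4 without Lactating replicate 3. Both calls were lost without Pregnant replicate 1 or 2 or Lactating replicate 1, when the list had 0 rises (and 1 fall without Lactating replicate 1). Of 24 genes for the uptake of dying cells 2 rose and 2 fell, or 3 and 1 without Lactating replicate 3. Cd36 and Lrp1 are given above, and the falls were the lipid-binding receptor Cd300lf (2.49-fold, adjusted p = 0.0163, lost without Pregnant replicate 3 with 0.0658) and the scavenger receptor Msr1 (4.79-fold, 0.0363, lost without Lactating replicate 3 with 0.0617, Lactating replicate 2 with 0.0882 and Pregnant replicates 1, 2 and 3 with 0.102, 0.117 and 0.0851).

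Hspa1a, an inducible heat shock protein with a near-identical copy, was at 82.8, 90.6 and 98.4 CPM in pregnancy and at 22, 15 and 283 in lactation. Its direction turned with Lactating replicate 3, from 0.24 ± 0.85 with it (adjusted p = 0.929) to -2.34 ± 0.45 without it (adjusted p = 0.00979). Of 19 tested heat shock chaperones none passed with all libraries in edgeR's test (3 were higher and 2 lower at an unadjusted p under 0.05, and DESeq2 called 1 and limma-voom none). Of 19 endoplasmic reticulum stress genes 1 fell, Sec61b, a subunit of the protein translocation channel (2.64-fold, adjusted p = 0.0207), and the list had 0 falls without Pregnant replicate 2 or 3 or Lactating replicate 2 (0.108, 0.0733 and 0.0532 for Sec61b).

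**Figure D5:**
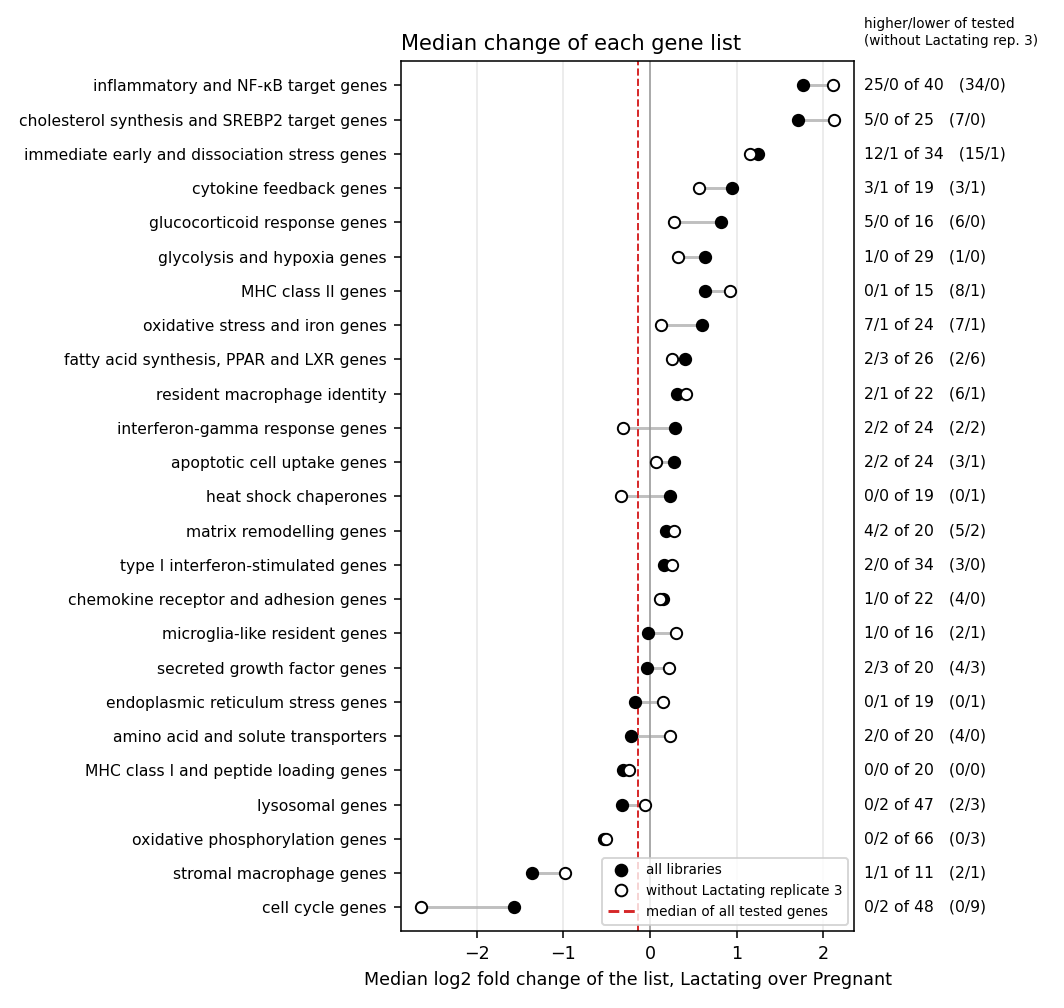
Median log2 fold change of Lactating over Pregnant (x axis) for 25 gene lists (y axis), filled points with all libraries and open points without Lactating replicate 3, with the counts of members higher and lower at right. The inflammatory list moves from 1.76 to 2.11 and the cell cycle list from -1.57 to -2.64, while the dashed line marks the median of all tested genes, -0.14.

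Milk and epithelial genes were uneven within each stage. Csn2, beta-casein, was at 3111, 316 and 456 CPM in pregnancy and at 286, 243 and 14394 in lactation, so that Lactating replicates 1 and 2 lay below all Pregnant libraries and replicate 3 above them. The fitted change was 1.94 ± 1.32 with all libraries (adjusted p = 0.47) and -2.34 ± 0.84 without Lactating replicate 3 (adjusted p = 0.157), and virgin libraries had 0.0244 ± 0.0422 CPM (SD, n = 3). Csn1s2b, a casein, was at 2.56, 0 and 0 CPM in pregnancy and at 460.4, 462 and 5493 in lactation, so that all 3 Lactating libraries were far above pregnancy (log2 fold change 9.29 ± 1.36, adjusted p = 0.00825 without Lactating replicate 3, and 11.52 ± 2.04, 0.0236 with it). Its call was lost without Pregnant replicates 1, 2 and 3 (0.0506, 0.109 and 0.0819). Wap, a whey protein, was higher in all 3 Lactating libraries too, at 114, 9.18 and 33.7 CPM against 399, 307 and 14816, but did not pass (adjusted p = 0.11). Of 17 tested milk and secretory genes, 2 rose with all libraries and 0 without any 1 of the Pregnant libraries, and without Lactating replicate 3 Csn1s2b rose and Glycam1 and Muc15 fell. Cidea, which enlarges lipid droplets in secretory cells, was at 0.667, 0 and 0.456 CPM against 5.02, 5.3 and 221 and had an adjusted p of 0.0319 with that library and 0.288 without it, and of 0.113, 0.131 and 0.125 without Pregnant replicates 1, 2 and 3. Krt19, a luminal keratin, was at 26, 15.7 and 12.6 CPM in pregnancy and had no count in lactation, at least 122-fold lower (adjusted p = 0.0061). It was the 1 called member of 18 tested luminal genes, 8 of which were at 0 throughout 1 stage, and the list's median was -2.46, or -1.60 with those 8 at their bound (2 falls and -2.55, or -2.38, without Lactating replicate 3). Luminal genes together took 0.172%, 0.0795% and 0.0897% of the counts in pregnancy and 0.0251%, 0.034% and 0.159% in lactation. Their part in the lower genes was not tested. Endothelial genes were high in Lactating replicate 3 alone: Esam, an endothelial adhesion molecule, was at 7.89, 6.19 and 2.61 CPM in pregnancy and 0, 0 and 97 in lactation (adjusted p = 0.498 with that library, and 0.017 without it, where it was lower).

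Several genes of no list were at 0 throughout lactation. Of the 152 genes called lower, 40 had no count in any Lactating library, and 3 of the 336 called higher had none in any Pregnant library. Genes with any count were fewer in lactation, 11462, 11412 and 10178, against 13409, 13329 and 13790 in pregnancy. The share of all tested genes at 0 in each stage was not counted, so the difference between 40 and 3 is only a description. The part that lower detection plays in these zeros was not tested. Fam20c, a kinase of secreted proteins, was at 69.9, 53.1 and 32.4 CPM in pregnancy and had no count in lactation, at least 338-fold lower (adjusted p = 0.000717). Mettl21a, a methyltransferase of chaperones, was at 18.9, 38.7 and 27.7 CPM, at least 212-fold lower (adjusted p = 0.000276), and Tmem26, a membrane protein, at 18.9, 31.5 and 35.7, at least 236-fold lower (adjusted p = 0.0121). All 3 were thus well detected in each Pregnant library and kept the call whichever library was left out. Ncaph, a condensin subunit, and Dsn1, a kinetochore protein, were at least 144-fold and 123-fold lower (adjusted p = 0.00426 and 0.00737), and Pik3ip1, a brake on PI3-kinase, at least 142-fold (0.0104). These 3 genes are outside the cell cycle list, and their calls held whichever library was left out. Serpina3g, a protease inhibitor, and Cenpp, a centromere protein, were also at 0 in lactation, at least 576-fold and 150-fold lower (adjusted p = 0.0431 and 0.0335), and lost the call without Pregnant replicates 1, 2 and 3 (0.0997, 0.117 and 0.111 for Serpina3g and 0.0879, 0.0953 and 0.0826 for Cenpp) and Lactating replicates 1 and 2 (0.0764 and 0.0851, and 0.0607 and 0.0687). Serpina3g also lost it without Lactating replicate 3 (0.0593).

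Across the 118 genes that the naming rule gave, 82 were called with all libraries and 53 of these stayed called in each of the 6 refits with 1 library less. In the fit on the 6 compared libraries alone 50 of the 82 stayed called. The calls lost were 25, 27 and 25 without Pregnant replicates 1, 2 and 3, 12 and 17 without Lactating replicates 1 and 2 and 7 without Lactating replicate 3.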

How the data were processed

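RNA-seq counts per gene came from the series table, in which the authors deposited raw counts for 27179 genes in 12 libraries. Per the submitters' processing notes, featureCounts and the mm10 build were used. The sources used here do not give the aligner, the annotation or the strand setting. The 12 files of single libraries held the same counts as the table. Gene identifiers were matched to symbols for 93% of the genes. Genes without a symbol took up to 0.825% of a library's counts.

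The main test was edgeR 4.0.16 (R 4.3.3), quasi-likelihood, on all 4 stages with TMM scaling and Benjamini-Hochberg adjustment at 0.05, after edgeR's low-count filter. CPM are counts per 1000000 of the TMM-scaled library size, and ± is SE for log2 fold changes. This SE was derived from the test, as the absolute log2 fold change over the square root of its F statistic. Shares of counts are percentages of a library's unscaled total. Folds against a stage at 0 use a floor of 3 counts over that stage. Intervals and floors cover counting error only. limma 3.58.1 and DESeq2 1.42.0 were alternatives. Leaving out a library repeated the filter, and without Lactating replicate 3 it kept 13426 genes instead of 12672. The scripts were tested on simulated counts.

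Members and the 36 gene lists were chosen with earlier results of these data known. Genes were named by a rule: the 10 largest rises and falls (8 each without Lactating replicate 3) among called genes whose stages did not overlap and whose log2 CPM averaged 3 or more, leaving out Gm, Rik and LOC names, the 3 called members of each list with the smallest adjusted p (in either fit), and 12 fixed genes. Others named in the text were chosen after their values were seen.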

Additional observations from a re-analysis of the deposited data

How the results depend on the processing

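The counts of changed, higher and lower genes were 488, 336 and 152 with the reported settings. DESeq2 gave 1470, 777 and 693, so that 52.9% of calls were higher instead of 68.9%, and limma-voom with quality weights gave 998, 656 and 342. A fit on the 6 compared libraries alone gave 147, 107 and 40. Leaving out 1 library gave 194 to 689 changed, 143 to 444 higher and 51 to 245 lower genes, and 53.4% and 56.6% of calls were higher without Lactating replicates 1 and 2. Other scaling or low-count filters kept these counts within 1.5 times, and scaling moved the median of all genes by at most 0.0118 on the log2 scale. Replicate numbers did not pair the samples (correlations of deviations -0.023, 0.0501 and 0.0289), and a fit with the replicate block gave 346 calls. Added after the data were seen, and all without Lactating replicate 3, the 6-library fit gave 788, 462 and 326, the replicate block 524, and limma-voom 1011, 661 and 350. Genes without overlap numbered 3373, and 3951 to 5169 with 1 library left out, the most without Lactating replicate 3.

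The milk share differed by 1.98 percentage points (exact permutation p = 0.8), from -0.447 to 3.19 with 1 library left out, and it turned to -0.447 without Lactating replicate 3. The macrophage identity share differed by -0.325 points, from -2.05 to 2.62, turning to 0.0396 without Pregnant replicate 1 and to 2.62 without Lactating replicate 3. The log2 fold change of Hspa1a, 0.24, turned without Lactating replicate 3 (-2.34, -2.27 in the 6-library fit and -2.27 with the replicate block), and ranged from -2.34 to 0.71 with 1 library left out. That of Esam, 2.55, turned likewise (-8.92, -8.88 with the block and -5.99 in limma-voom) and ranged from -8.92 to 3.09. The cause was not tested.

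The 3 libraries a stage limit the precision: 2357 genes had an unadjusted p under 0.05 against 488 called, and a permutation test of shares with 3 against 3 cannot go below 0.1.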

Other observations

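Genes not described so far gave further large rises in all 3 Lactating libraries. Rcan1, an inhibitor of the phosphatase calcineurin, was at 176, 114 and 249.6 CPM in pregnancy and at 2825, 2474 and 1493 in lactation, 12.6-fold higher (edgeR adjusted p = 0.000276). Itpkc, a kinase of inositol trisphosphate that limits calcium signals, was at 10.3, 8.49 and 9.52 CPM against 154, 177 and 101, 15.2-fold higher (adjusted p = 0.000148). The stages did not overlap for either gene. Zswim4 was 13.2-fold higher (adjusted p = 0.000846), and Errfi1, an inhibitor of the EGF receptor, was at 36.2, 39.5 and 26.8 CPM against 298, 135 and 176 (adjusted p = 0.00316). These 4 genes kept their calls whichever library was left out, and Rcan1, Itpkc and Zswim4 were chosen after their values were seen, as were Sox4, Chst2 and Jchain.

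Sox4, a transcription factor, was at 14.5, 8.72 and 18.1 CPM in pregnancy and had no count in lactation, at least 116-fold lower (adjusted p = 0.00228, a call lost in the fit on the 6 compared libraries alone, 0.0612). Chst2, a sulfotransferase that acts on carbohydrates, was at 88.5, 87.5 and 84.8 CPM in pregnancy and 0.173, 0 and 0 in lactation (adjusted p = 0.0132), against 3.92 ± 3.97 in virgin mice (SD, n = 3). For Chst2 the Pregnant libraries thus lay above both of these stages. Zfp959, a zinc finger gene, fell from 53.5, 68.8 and 11.6 CPM to 0, 0 and 0.176 (adjusted p = 0.000991). Jchain, the joining chain of antibodies, had no count in pregnancy or in Lactating replicate 1 and was at 446 and 97.5 CPM in Lactating replicates 2 and 3 (adjusted p = 0.0954).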
